A study of Mus musculus with 3 samples.

Results

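The IgG library of this CUT&Tag series gave 480 peaks among the 11211 peaks of its 3 deposited lists, and those 480 are described here. They were chosen by the authors' own peak calls, so every entry of the IgG list is a member. The other lists held 3256 peaks of ZFP410, a DNA-binding zinc finger protein, in untreated cells and 7475 in induced cells. All cells were Lin-CD29+CD34+Sca1+ brown preadipocytes sorted from male C57BL/6 mice. The untreated group and the IgG group were untreated cells, stained with the ZFP410 antibody or with IgG. The induced group was stained for ZFP410 after 3 days in brown adipocyte differentiation medium. Each group had 1 library, so values below compare libraries, and no difference has a replicate check or a p-value. Intervals cover counting error only.

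CUT&Tag sends a transposase to an antibody on chromatin, and the transposase cuts and tags the DNA beside it. Non-specific IgG has no target, so its fragments come from untargeted cutting, which favours accessible DNA. Repeats whose copies are missing from the assembly gather the reads of many copies at few positions. In the mouse, centromeres lie at one end of each chromosome, and the assembled start of chromosome 9 is known for major satellite repeats of the pericentromere.

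An IgG peak over a promoter was rare. Promoter windows of 300 bases, from 250 before to 50 after each start, were taken from RefSeq (GRCm38.p6, the coordinates of mm10). The promoter table used here leaves out 1 chromosome, so the 15 IgG peaks on it were not looked up. Of the other 465 IgG peaks, 1 (0.215%) touched any of the 32851 windows, against 515 of 3163 untreated (16.3%) and 1201 of 7283 induced peaks (16.5%). That peak, chr7:41633122-41633317 in mm10, was 196 bp wide with 2 summit fragments, and it lay between the facing-away starts of Gm51480, a predicted gene, and Zfp788, a zinc finger gene. Both promoters are shown because, of the windows searched, they are the ones under an IgG peak, 5′ to 3′ on the strand of the gene, with the bases inside the peak in capitals. The peak covered 142 bases of the Gm51480 window (chr7:41632964-41633263, minus strand) and 37 bases of the Zfp788 window (chr7:41633281-41633580, plus strand).
Gm51480: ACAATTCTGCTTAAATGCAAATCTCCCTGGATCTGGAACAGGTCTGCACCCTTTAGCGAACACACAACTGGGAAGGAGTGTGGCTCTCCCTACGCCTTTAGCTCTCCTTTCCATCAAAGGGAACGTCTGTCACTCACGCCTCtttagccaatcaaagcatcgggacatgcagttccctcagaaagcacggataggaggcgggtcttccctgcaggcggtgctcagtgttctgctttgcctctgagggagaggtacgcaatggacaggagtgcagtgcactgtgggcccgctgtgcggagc
Zfp788: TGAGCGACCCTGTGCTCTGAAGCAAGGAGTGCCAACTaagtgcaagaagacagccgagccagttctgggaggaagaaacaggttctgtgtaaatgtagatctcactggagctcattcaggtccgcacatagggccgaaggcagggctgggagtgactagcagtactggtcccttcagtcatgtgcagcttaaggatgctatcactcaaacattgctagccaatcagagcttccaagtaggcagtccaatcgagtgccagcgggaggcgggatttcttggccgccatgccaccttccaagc
The windows held 11 and 8 CG dinucleotides, and the median promoter held 7. Neither ZFP410 list had a peak overlapping this IgG peak.

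Most IgG peaks were narrow and rested on few fragments. The median width was 322.5 bp, with quartiles of 217 and 460 bp and a range of 186 to 15204 bp. From the fold and the p of each peak a whole number of fragments at the summit could be worked out, and it ran from 2 to 1460 with a median of 4. The summit of 98 peaks held 2 fragments, that of 135 held 3 and that of 78 held 4. At the other end, 42 peaks held 10 to 49 fragments and 31 held 50 or more. The authors' fold over the local background ran from 1.23 to 23.4, with a median of 3.87. The weakest listed −log10 q was 1.016, for example at a peak of 2 fragments in Dusp6. Sites below the authors' threshold were not analysed here.

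Most IgG peaks sat where the caller expected a background above the lowest of the list. The local background is the number of fragments the caller expected at the summit, and it is given here as a multiple of the lowest value in the same list, the genome background. It exceeded the genome background by more than 2% at 434 IgG peaks (90.4%), against 21.6% of untreated and 30.1% of induced peaks. It was over 2 times the genome background at 69.4% of IgG peaks, 10.3% of untreated peaks and 14.6% of induced peaks. It was over 100 times at 36 IgG peaks (7.50%), against 1.78% and 0.95%. The median multiple at IgG peaks was 3.75, and the genome background of that list was 0.0231 fragments. In absolute terms the expected number was thus small at most IgG peaks. The control used by the caller is not given in the sources used here. Where an IgG and a ZFP410 summit lay within 20 bp, the local multiples were equal within 0.1% at 5 of 17 untreated and 10 of 32 induced sites. Fragments and local background rose together among the IgG peaks, from a median of 2 fragments at the genome background to 29 where the background was over 20 times as high. A listed peak had to exceed its local background, so the peak call itself ties fragments to background.

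**Figure D1:**
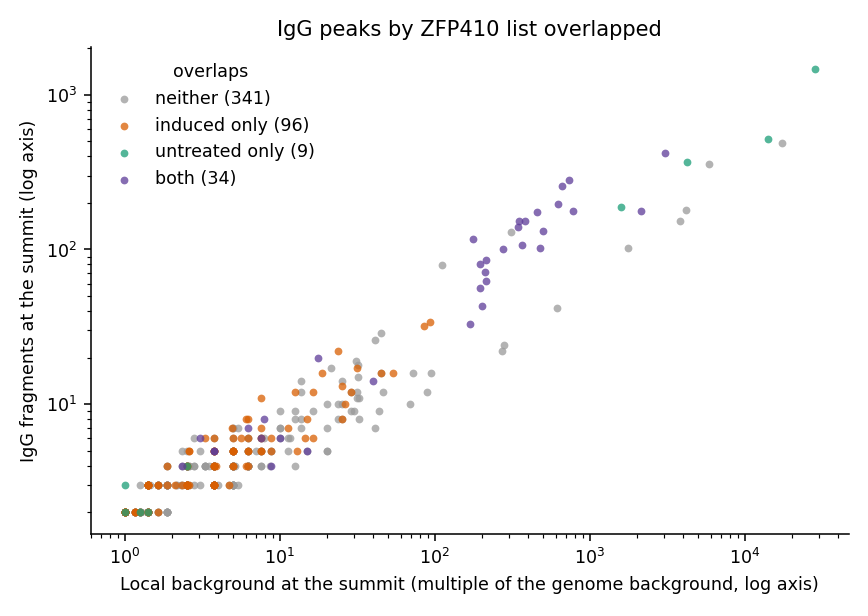
Each point is 1 of the 480 IgG peaks, with the local background as a multiple of the genome background on the x axis and IgG fragments at the summit on the y axis, both on log axes. Colours give the ZFP410 lists that the peak overlapped. The 34 peaks over both lists lie mostly in the upper right, and the 341 over neither list run from 2 to 490 fragments.

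Peaks at the start of a placed chromosome were few, and a block on chromosome 9 held nearly all of their summit fragments. A start below 3.5 Mb, which marks the pericentromeric end, was seen for 18 IgG peaks (3.75%, 95% Wilson interval 2.39 to 5.85%), for 55 untreated peaks (1.69%) and for 76 induced peaks (1.02%). Chromosome 9 held 14 of the 18, all between chr9:3000002 and chr9:3038219. They covered 33.7 kb of this 38.2 kb stretch and held 23.0% of the summed summit fragments of the IgG list. Of the 2154 summit fragments of the 18 peaks, the block held 2138. Such sums count summit height alone, and the tallest IgG peak, outside the block, held 1460. Summits in the block held 22 to 420 IgG fragments with a median of 145.5, against a median of 3 for the 452 peaks elsewhere. The other 4 peaks below 3.5 Mb, on chromosomes 10, 16 and 17, held 3 to 5 fragments.

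Of the 14 block peaks, 13 were also in both ZFP410 lists. At the first, chr9:3000002-3002810, the summits held 420 IgG, 819 untreated and 742 induced fragments. At chr9:3023364-3026869 they held 282, 346 and 453 fragments. At chr9:3011593-3019333 they held 258, 363 and 439 fragments. IgG had the lowest fragment number of the 3 libraries at each of these peaks, but it was also the shallowest. Judged by genome background and extension length, the untreated library was 7.04 times and the induced one 14.1 times as deep as IgG. Enrichment, summit fragments divided by the library's own genome background, was lower in the ZFP410 libraries at 13 of 13 shared block peaks. Its ratio to IgG had a median of 0.329 (0.257 to 0.497) for untreated and 0.189 (0.150 to 0.264) for induced. The block peak missing from both ZFP410 lists, chr9:3005792-3006032, was the shortest and weakest, with 22 fragments over 241 bp. No coding gene lay in the block. The nearest gene was Mir101c, a microRNA gene 449 bp past the last peak.

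**Figure D2:**
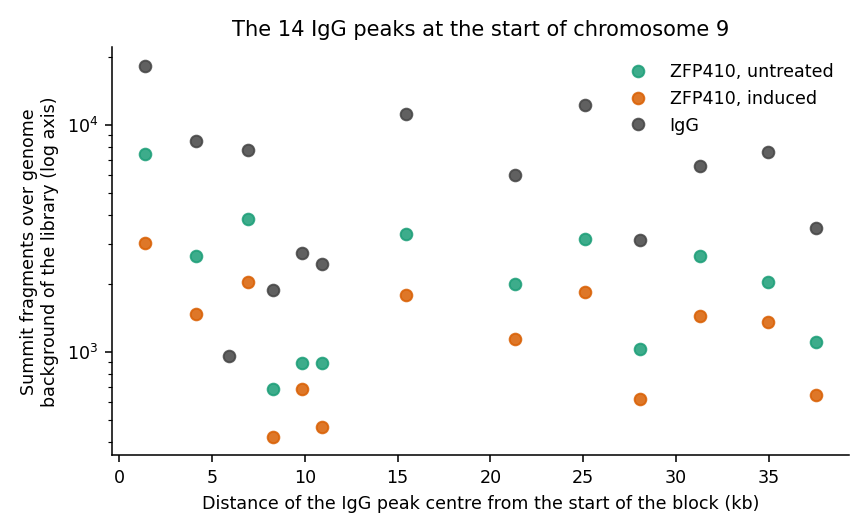
Enrichment at the 14 IgG peaks at the start of chromosome 9, with the distance from the start of the block in kb on the x axis and summit fragments over the genome background of the library on a log y axis. Black points are IgG, green points untreated and orange points induced ZFP410; at each of the 13 shared peaks IgG was highest and induced lowest, and the weakest IgG peak, of 22 fragments, has no other point.

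Sequences outside the assembled chromosomes held 10 IgG peaks (2.08%, 1.14 to 3.79%) on 3 contigs. The contig JH584304 held 8 of them, which covered 41.3 kb between positions 68511 and 114106. Its summits held 86 to 177 IgG fragments. The widest peak of the list, 15204 bp with 132 IgG fragments, was at positions 79968 to 95171 of it and overlapped 9 untreated and 12 induced peaks. The highest fold of the list, 23.4, belonged to the peak at positions 105678 to 114106. There the summits held 117 IgG, 153 untreated and 202 induced fragments, and the local background was 175.6 times the genome background in both the IgG and the untreated list. The peak on contig GL456392 held 33 IgG, 100 untreated and 122 induced fragments. The peak on GL456354, a contig assigned to chromosome 5, held 6 IgG and 15 induced fragments and was not among untreated peaks. All 10 contig peaks overlapped an induced peak and 9 an untreated one. The median ratio of enrichment to IgG was 0.304 for untreated and 0.168 for induced.

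Block and contigs together made up 24 of 480 IgG peaks (5.00%), but 31.1% of the length covered and 33.8% of the summed summit fragments. Of the 16 IgG peaks wider than 2 kb, 15 lay there. In the untreated list the same places made up 2.12% of peaks, 7.96% of the length and 27.4% of summit fragments. In the induced list they made up 1.27%, 2.05% and 16.8%. Lengths in kb depend on how much each list called. The mitochondrial chromosome had no peak in any of the 3 lists.

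All 21 assembled chromosomes had an IgG peak. Density ran from 9.02 peaks per 100 Mb on chromosome 11 to 25.8 on chromosome 12, leaving out Y, which had 1 peak. Chromosome X held the most, 38 peaks, or 7.92% (5.82 to 10.7%) of the IgG list, against 1.54% of untreated and 3.18% of induced peaks. Its IgG density, 22.3 peaks per 100 Mb, was below those of chromosomes 6 (22.7), 9 (24.9), 12 (25.8) and 17 (23.2). The ZFP410 densities were lower on X than on any other chromosome, at 29.3 untreated and 139 induced peaks per 100 Mb. Chromosome 11 held 2.29% (1.28 to 4.06%) of IgG peaks against 6.54% and 6.47%. The IgG interval lay below both ZFP410 shares on chromosomes 1, 5, 8, 11 and Y and above both on chromosomes 12 and X. Chromosome 9 had 24.9 peaks per 100 Mb, and 13.7 without the block.

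**Figure D3:**
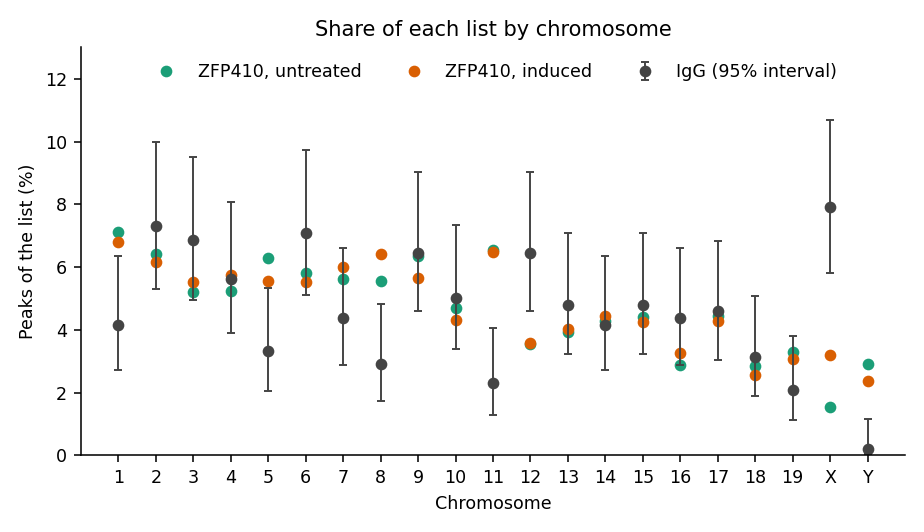
Share of each list on each chromosome in percent of its peaks, with IgG in black with its 95% Wilson interval, untreated ZFP410 in green and induced ZFP410 in orange. The IgG share is highest on X, at 7.92%, where the ZFP410 shares are 1.54% and 3.18%, and is 2.29% on chromosome 11, where they are 6.54% and 6.47%.

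IgG peaks with another IgG peak within 10 kb numbered 74 (15.4%, 12.5 to 18.9%), in 24 clusters. The ZFP410 lists, with many more peaks, had 18.7% and 25.5% of theirs in such clusters. The chromosome 9 block and the JH584304 contig were the largest IgG clusters, and 16 of the 24 were pairs. Outside block and contigs, 52 of 456 peaks (11.4%) were clustered. The largest of these were 4 peaks of 3 to 12 fragments over 7.08 kb at chr6:146709621-146716699 and 4 peaks of 3 to 5 fragments over 3.42 kb at chr10:27821617-27825040. On chromosome 6 none of the 4 was over a ZFP410 peak, and on chromosome 10 an untreated peak overlapped 1 and induced peaks overlapped 2. A cluster of 3 lay in Pfkp, a phosphofructokinase gene of glycolysis, with 3 to 5 fragments and none over a ZFP410 peak. Of the 52 clustered peaks outside block and contigs, 23 (44.2%, 31.6 to 57.7%) overlapped an induced peak, against 84 of 404 lone peaks (20.8%, 17.1 to 25.02%).

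IgG peaks were mostly far from the ends of coding genes. Summits lay within 1 kb of either end of a protein-coding gene for 8 IgG peaks (1.67%, 0.847 to 3.25%), against 22.3% of untreated and 21.3% of induced peaks. A further 112 (23.3%) lay inside coding genes, 38 (7.92%) inside other genes, of which 29 were lncRNA genes, and 322 (67.1%) between genes. The median distance from summit to the nearest coding gene end was 88.9 kb for IgG, 15.0 kb for untreated and 19.1 kb for induced peaks. None of the 130 IgG peaks over an induced peak, and none of the 43 over an untreated one, was at a coding gene end.

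**Figure D4:**
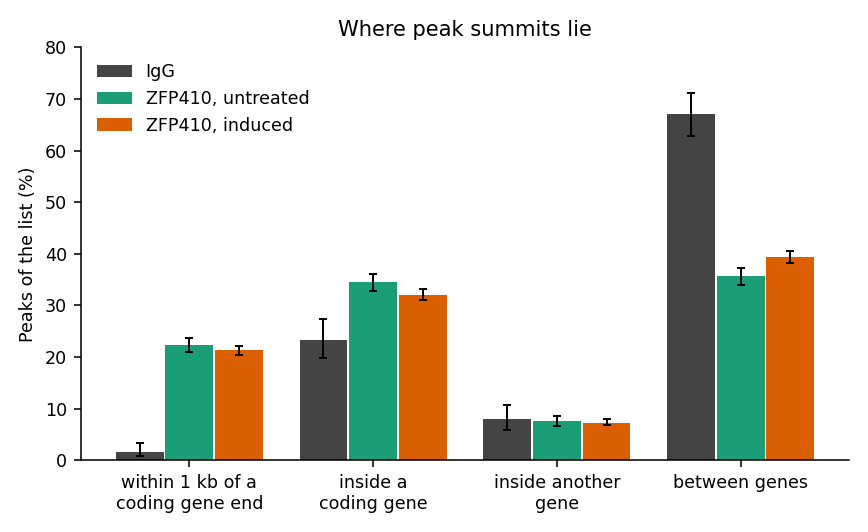
Share of each list in percent, by where the summit lies, for IgG (black), untreated ZFP410 (green) and induced ZFP410 (orange), with 95% Wilson intervals. Of IgG summits 1.67% lie within 1 kb of a coding gene end and 67.1% between genes, against 22.3% and 35.6% of untreated and 21.3% and 39.4% of induced summits.

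The 8 gene-end peaks were mostly weak. At Dusp6, a phosphatase that switches off ERK kinases, the peak chr10:99263347-99263545 held 2 fragments with its summit 126 bp inside the start. It began 67 bp past the RefSeq promoter window. At Tmsb4x, which encodes the actin-binding thymosin beta 4, and at Gm13283, a predicted gene, the peaks also held 2 fragments. Cndp1, a carnosine dipeptidase gene, had 3 fragments, Vmn2r2, a vomeronasal receptor gene, had 4, and Gtpbp1, which encodes a GTP-binding protein, had 7. The exception was Lars2, the mitochondrial leucyl-tRNA synthetase. Its peak, chr9:123461837-123462082, held 153 fragments 609 bp before the last base of the gene, where the local background was 87.3 fragments and the fold 1.74. None of the 8 peaks overlapped a ZFP410 peak.

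The 112 peaks inside coding genes lay in 108 genes, and these were long. Their median length was 208 kb, with 63.9% over 100 kb, against 17.2 kb and 11.1% for all 21887 coding genes. A longer gene offers more bases to a peak; genes with an untreated or induced summit inside had medians of 87.8 and 87.4 kb. Pfkp held 3 IgG peaks, and Cadm2, a cell adhesion gene, and Stam2, an endosomal sorting gene, held 2 each. Leaving out the gene-end peaks, such as that in Lars2, the most fragments inside a coding gene were 103, in Jarid2, which encodes a partner of the Polycomb complex PRC2, over a local background of 40.5. Peak1, a pseudokinase gene, followed with 42 over 14.03. Eif3b, a translation initiation factor gene, had 18 fragments over 0.732, and Zfp951, a zinc finger gene, had 17 over 0.490. None of these 4 peaks was over a ZFP410 peak. In Ppp1r9a, the neurabin gene, the IgG summit held 16 fragments and the induced one 33.

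Among loci that are not coding genes, Igh, the immunoglobulin heavy chain locus, held a peak of 19 fragments with a fold of 11.7 (chr12:113424319-113425182). Igk, the kappa light chain locus, held a peak of 4 fragments, and the shared Tcra and Tcrd receptor locus a peak of 3. No ZFP410 peak overlapped any of these. Gm33838, a lncRNA gene, held 356 IgG fragments over a local background of 134.4. On chromosome 17 peaks of 490 and 179 fragments lay beside Rn18s-rs5, a ribosomal RNA pseudogene, and in AY036118, a lncRNA, with folds of 1.23 and 1.84.

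Gene lists were counted for peaks within the gene or 1 kb of it. Over all coding genes the share was 0.530% (116 of 21887) for IgG, 7.85% for untreated and 15.9% for induced peaks, so short lists with no IgG peak do not stand apart from the rest. None of 22 housekeeping genes had one, while 5 had an untreated and 8 an induced peak. None of the 3 genes of the sorting markers (Itgb1, Cd34, Ly6a), of 9 preadipocyte genes or of 13 marker genes of blood, endothelium, epithelium, muscle, neuron and liver had one. The preadipocyte genes had peaks at 2 in the untreated and 3 in the induced list, and the other cell types at 0 and 1. Peaks do not measure expression, so they do not test the cell type. Chd4, the NuRD ATPase gene bound by ZFP410 in other cells, had 6 untreated and 2 induced peaks here. Its nearest IgG peak was 894 kb away. Of the copy-rich genes looked up, Lars2 had an IgG peak, while Sfi1, Mid1 and Erdr1 had ZFP410 peaks in both lists and no IgG peak; Mid1 was 5480 bp from one. Among genes in tandem arrays, 0 of 1428 olfactory receptor genes, 3 of 645 vomeronasal receptor genes (0.465%) and 0 of 15 Speer genes had an IgG peak. Of genes with a Zfp symbol 3 of 416 (0.721%) had one. Gm and Rik symbols include many genes that are not coding, and 42 of 21795 (0.193%) and 11 of 2300 (0.478%) had one, against 172 of 49943 (0.344%) of all genes.

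Overlap of at least 1 bp with an untreated ZFP410 peak was found for 43 IgG peaks (8.96%, 6.72 to 11.8%). Overlap with an induced peak was found for 130 (27.1%, 23.3 to 31.2%), and with both for 34 (7.08%, 5.11 to 9.74%). Thus 341 (71.0%) were in neither list, 96 (20%) in the induced list alone and 9 (1.88%) in the untreated list alone. Seen from the other side, 73 untreated peaks (2.24%) and 170 induced peaks (2.27%) overlapped an IgG peak, while 47.7% of untreated peaks overlapped an induced one. The ZFP410 lists have unequal depth and number of peaks, so the IgG shares over them are not a comparison of treatments. Outside block and contigs, 21 of 456 IgG peaks (4.61%) overlapped an untreated peak, 107 (23.5%) an induced peak and 12 (2.63%) both. Without block and contigs, 0.676% of untreated and 1.36% of induced peaks were over an IgG peak.

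Up to 49 fragments, overlap was more frequent at IgG peaks of 5 or more fragments than at those of 2 to 4. For the untreated list this rests on few peaks, with 1 to 8 overlapping in each of these bins. Of the 98 peaks of 2 fragments, 14.3% (8.70 to 22.6%) were over an induced and 3.06% (1.05 to 8.62%) over an untreated peak. Of the 96 peaks of 5 to 9 fragments the shares were 40.6% (31.3 to 50.6%) and 8.33% (4.28 to 15.6%). Of the 31 peaks of 50 or more they were 64.5% (46.9 to 78.9%) and 77.4% (60.2 to 88.6%), but 20 of these 31 lay in the chromosome 9 block or on contigs, and all 20 were in both lists. Of the 11 peaks of 50 or more elsewhere, 0 overlapped an induced and 4 an untreated peak. Outside block and contigs the shares were 40% and 8.42% of 95 peaks of 5 to 9 fragments and 38.5% and 5.13% of 39 peaks of 10 to 49. Width and local background moved with the fragments, the background in part through the peak call. The median width was 289 bp at 2 fragments and 2121 bp at 50 or more. By local background, 13.04% of the 46 peaks at the genome background and 45.2% of the 73 peaks over 20 times it were over an induced peak. The part of width and background in the overlap was not tested.

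**Figure D5:**
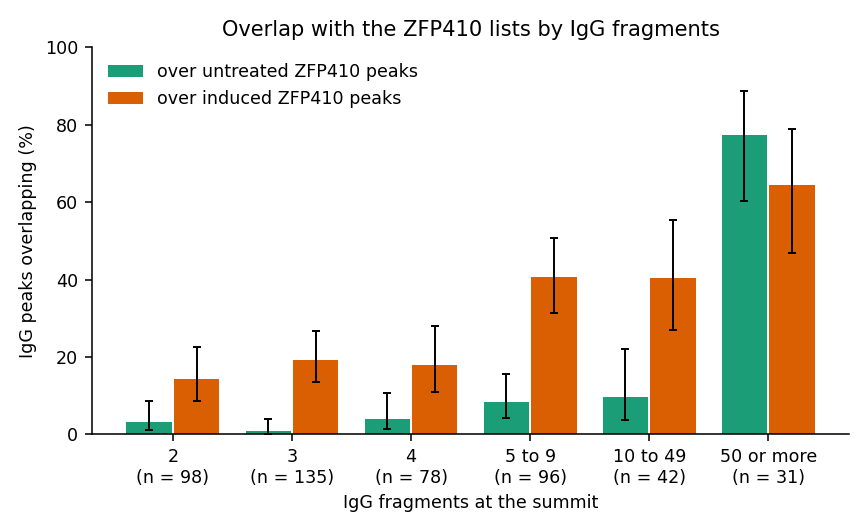
Share of IgG peaks in percent that overlap an untreated (green) or induced (orange) ZFP410 peak, by IgG fragments at the summit, with 95% Wilson intervals and the number of IgG peaks under each bin. The untreated share stays under 10% up to 49 fragments; in the top bin, 20 of 31 peaks lie in the chromosome 9 block or on contigs and are over both lists, and of the other 11 none is over an induced and 4 are over an untreated peak.

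At most shared sites the ZFP410 library held more fragments but less enrichment than IgG. The untreated summit held more fragments than the IgG summit at 36 of 43 shared sites, as many at 3 and fewer at 4, and the induced summit held more at 130 of 130. Over the 43 sites shared with the untreated list the ratio of enrichment, untreated over IgG, had a median of 0.312 (95% interval of the median 0.274 to 0.336), and 42 of 43 were below 1. Over the 130 sites shared with the induced list the median was 0.222 (0.203 to 0.243), and 130 of 130 were below 1. The IgG peaks were chosen by their height in IgG, which alone lowers such a ratio, so these ratios are descriptions. With fragments scaled by relative depth the medians were 0.211 and 0.168. The site above 1 was in Fry, a large scaffold protein gene, with 5 IgG, 25 untreated and 24 induced fragments, and the untreated and induced summits lay 300 and 457 bp from the IgG summit. Overlapping peaks did not always share a summit: 24 of 43 untreated and 64 of 130 induced summits lay within 100 bp of the IgG one.

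Outside block and contigs the sites in both lists were mostly small. At chr14:124801553-124802231 the summits held 20 IgG, 10 untreated and 67 induced fragments. In Gm20590, a pseudogene on chromosome 13, they held 14, 17 and 48 fragments, and in the lncRNA Gm27166 8, 15 and 24. Both Stam2 peaks, of 6 and 5 IgG fragments, were in both lists, with 6 and 5 untreated and 15 and 15 induced fragments. Among sites over the induced list alone, chr12:93576990-93577184 held 34 IgG and 74 induced fragments, and chr2:182012734-182013211 held 22 IgG and 60 induced.

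Several of the tallest IgG peaks were missing from one or both ZFP410 lists. Of 31 IgG peaks with 50 or more fragments, 7 were in neither list and 4 were in the untreated list alone. The tallest, chr2:98666735-98667168, held 1460 IgG and 4160 untreated fragments, and the nearest induced peak was 575 kb away. The 3 peaks at chr14:19415727-19419458 held 188, 520 and 370 IgG fragments and were over untreated peaks of 397, 423 and 854 fragments, though the middle summits lay 539 bp apart; the nearest induced peak was 320 kb away. The local background at these 4 peaks was 36.3 to 650 fragments in the IgG list. Of the 7 in neither list, 5 had folds of 1.23 to 2.64, namely those in Lars2, Jarid2 and Gm33838 and the pair on chromosome 17.

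The other 2 were narrow and far above their local background. The peak chr10:72491290-72491662 held 79 fragments over 2.56, a fold of 22.4, the second highest of the list. The peak chr12:104442346-104442719 held 129 fragments over 7.12, a fold of 16.02. The nearest ZFP410 peak was 589 kb from the first and 238 kb from the second. With the same local multiple, the weakest p of each ZFP410 list would have been reached by 28 untreated or 49 induced fragments at the first and by 59 or 111 at the second. At the enrichment of IgG, 376.5 untreated and 843.6 induced fragments would have stood at the first. This is not particular to these peaks: at the enrichment of IgG all 480 IgG sites would have passed that limit in either list. Of the 480, 437 were not in the untreated and 350 not in the induced list. The IgG peaks were chosen by passing the caller in the shallowest library, so the choice of sites largely set this outcome. Why sites are missing from the ZFP410 lists was not tested. Whether duplicate fragments make up the summits of the 2 narrow peaks was not tested either.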

How the data were processed

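The deposited files are MACS2 2.1.1 peak lists, 1 per library; reads had been mapped with Bowtie2 2.2.6 to mm10 and passed through Picard, per the submitters' processing notes. The authors' lists hold a score, the summit's fold against local background, and −log10 of p-value and q-value per peak. The threshold written in the deposited names is q 0.1. Which control the caller had, and whether duplicates were removed, is not stated by any label or header used. The score was not used.

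Whole summit fragments and the local background were solved from fold and −log10 p, to within 0.001. This worked for 480 of 480 IgG, 3256 of 3256 untreated and 7473 of 7475 induced peaks. The step was tested on simulated peaks, but their fragments and backgrounds were below those of the tallest listed peaks. Neither of the induced peaks left unsolved overlapped an IgG peak. The fragments are those the caller piled up. The genome background is the lowest local background of a list, and relative depth is that value over the shortest peak width. Each IgG peak was paired with the overlapping ZFP410 peak of nearest summit. Intervals are 95% Wilson intervals, and those of medians are binomial. Genes came from RefSeq GRCm38.p6, without exons, so exonic and intronic positions were not determined. The promoter table holds no gene of chromosome 18, and the 15 IgG, 93 untreated and 192 induced peaks there were left out of promoter counts. Python 3.11.15, pandas 2.3.3 and scipy 1.17.1 were used.

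Named are coding genes with an IgG summit within 1 kb of an end, genes at the peaks of highest fold and at the largest clusters, copy-rich genes and Chd4. Named peaks are those of highest fold, most fragments, greatest width or most ZFP410 fragments. Other genes, namely those with most fragments inside coding genes, those with several peaks, Fry and the receptor loci, were picked after their values were seen. Members, lists and rules were chosen with earlier results of these data known.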

Additional observations from a re-analysis of the deposited data

How the results depend on the processing

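Of 35 recomputed values, 14 stayed within the counting interval of the reported value and 21 moved out of it. With IgG peaks of −log10 q of at least 5 alone (100 peaks), overlap was 31% with the untreated list, 52% with the induced list and 27% with both. The same limit gave 13% starting below 3.5 Mb, 10% on contigs, 35% with a neighbour within 10 kb and a median width of 581 bp. When 50% of both peaks had to overlap, the shares were 4.58%, 13.96% and 1.88%, and with summits within 100 bp they were 5.21%, 13.33% and 3.13%. A window of 5 kb gave 5.21% of IgG peaks near a coding gene end. Scaling by relative depth gave enrichment ratios of 0.211 for untreated and 0.168 for induced over IgG.

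Leaving out the chromosome 9 block and the contigs, chosen after seeing the data, gave 4.61% overlap with the untreated list, 2.63% with both, 11.4% with a neighbour within 10 kb and an untreated ratio of 0.262. IgG summits of at least 10 fragments, also chosen after seeing the data, gave an induced ratio of 0.198. The cause of these shifts was not tested. No paired analysis was possible because each group holds 1 library, and for the same reason no library could be left out. Summits of 2 to 4 fragments, most of the IgG list, limit what overlap can show at this depth.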
